A study of Carex littledalei with 18 samples.

Results

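In leaves of the alpine sedge Kobresia littledalei (Carex littledalei) kept at -5 °C, 100 assembled genes stood high at 12 and 24 h and were back near their early level by 48 h. They were taken from 198 genes, of 214531 in all, that met a rule on the measured levels. The rule asked that each of the 6 values at 12 and 24 h lie above the mean at 0, 0.5, 4 and 48 h, and that those 6 values average at least 5. It also asked that the 48 h mean be under 2 times the mean of the 8 values at 0, 0.5 and 4 h, with 0.1 added to each mean. The 198 genes were ordered by the lower of the 12 and 24 h means over the highest other time mean, each with 0.1 added, here called the rule ratio, and the first 100 were kept. Members are called by their rank in that order. The levels that chose the members are therefore a description of them and not a finding.

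Plants dug from field sites in Tibet recovered in a nursery bed, grew in pots in a 25 °C greenhouse for 7 days, and were moved to a cold room at -5 °C. Leaves were taken after 0, 0.5, 4, 12, 24 and 48 h, with 3 libraries of polyadenylated RNA from each time and 1 pot for each time. All groups are of wild plants with the same growth history, no genotype or agent sets them apart, and the labels do not say whether the replicates were separate plants. Each time is also a pot, and the effect of the cold cannot be told apart from those of the pot, the hour or the move itself. The p-values measure the spread between libraries of 1 pot, which may be technical. In leaf RNA as a whole, a change in the share of cells of a type and a change in RNA per cell cannot be told apart. A single library is deposited under both 0 h and 4 h, as replicate 1 of each, with the same value for all 214531 genes. The rule kept this library at 0 h, while the tests below left out both columns and used 16 libraries. Another library stood apart: in 24 h replicate 2, 17792 genes with at least 10 reads had at least 90% of those reads, against at most 1468 in any other library. Library totals ran from 18895399 to 32345479 counts.

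Plants that survive frost change their leaf transcripts in steps. In Arabidopsis, transcription factors of the CBF (also DREB1) family rise soon after the cold begins, and their target genes, which include dehydrins, other late embryogenesis abundant proteins and enzymes of sugar metabolism, follow hours later. Some cold-induced transcripts stay up for as long as the cold lasts, and others return while it goes on. The identifiers of the members come from a Trinity assembly and the files do not pair them with gene names. No member could therefore be assigned to any of these families, no leaf marker could be looked up, and 4 identifiers are printed.

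The members' late mean had a median of 15.6, against 5.14 for their early mean. The 17361 genes that reached the rule's late mean of 5 had a median late mean of 12.7. Scaled levels, which the authors corrected for gene length and library composition, had a median over members of 5.0 before the cold, 5.55 after 0.5 h and 5.04 after 4 h. It stood at 14.5 after 12 h, 15.3 after 24 h and 4.88 after 48 h. Rule ratios ran from 1.49 to 14.6 with a median of 1.87. The ratio was at least 2 in 41 members, at least 3 in 10 and at least 5 in 2. Both sides of the limit were alike: ranks 99 and 100 had ratios of 1.495 and 1.489, and the first 2 genes outside had 1.487 each. Late means, over the 6 libraries of 12 and 24 h, were under 10 in 35 members and at least 100 in 9. The 3 most abundant members held 55.6% of the summed late level.

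**Figure D1:**
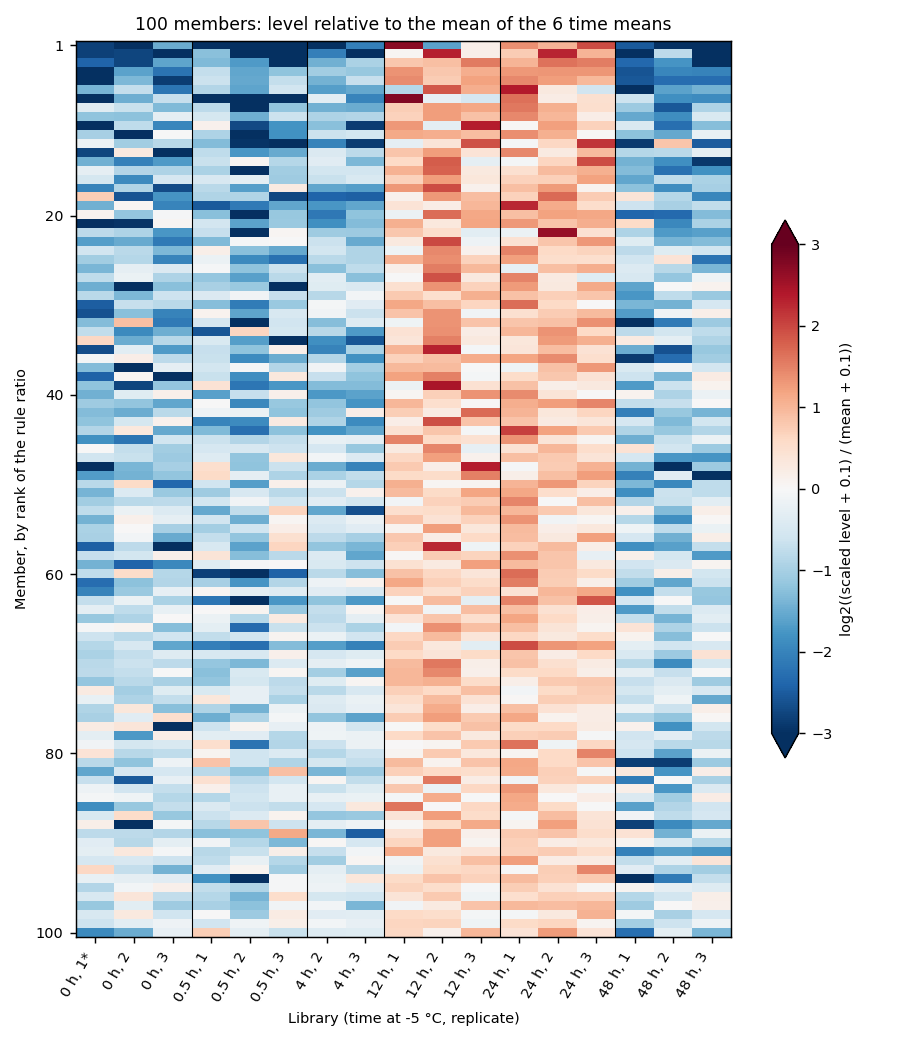
Level of each of the 100 members (rows, by rank) in each of 17 libraries (columns, by hours at -5 °C and replicate), as log2 of the scaled level plus 0.1 over the mean of the 6 time means plus 0.1. The asterisk marks the library whose values are also deposited as 4 h replicate 1. The 6 columns of 12 and 24 h are red in most rows, and single red cells at other times show members whose values overlap.

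The members' summed share of each library's unscaled reads also separated the times, as the choice of members by their late levels makes likely. It was 0.601% to 0.860% of counts in the 6 libraries at 12 and 24 h, against 0.245% to 0.390% in the other 11. The lowest late share, in 12 h replicate 1, was above the highest other share, in 0.5 h replicate 1. Within the late libraries the scaled levels were uneven. The highest level of 36 members was in 12 h replicate 2 and that of 29 in 24 h replicate 1, while the other late libraries held the highest level of 6 to 12 members each. Composition factors (TMM) computed here from the counts were 0.724 in 12 h replicate 2 and 0.726 in 24 h replicate 1, against 0.868 to 1.27 in the other late libraries. The scaled levels carry the authors' own scaling, which may differ from these factors. A low factor raises every level in a library scaled by it, and the part of scaling in these highest levels was not tested. In 24 h replicate 2 the median member stood at 0.956 of its 24 h mean.

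**Figure D2:**
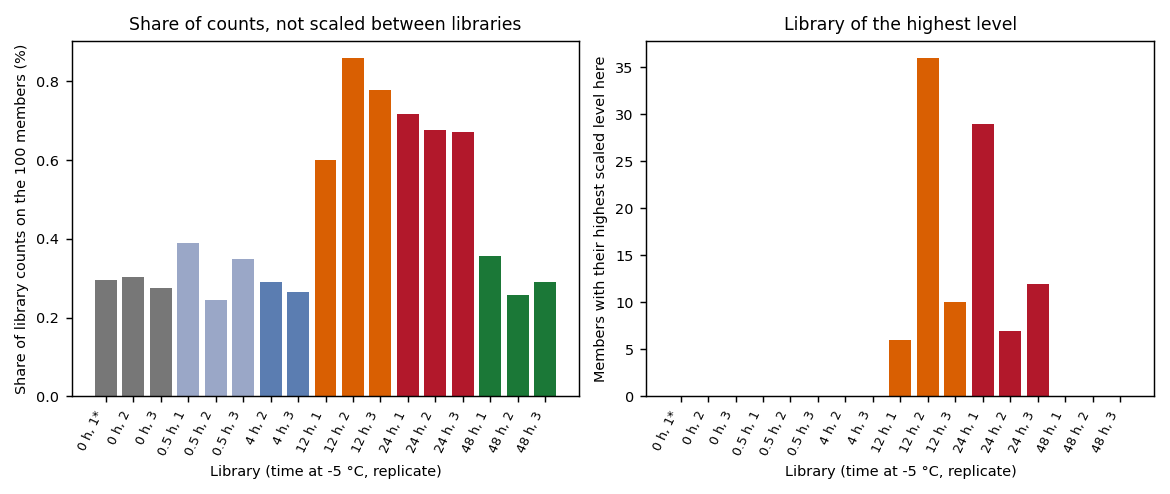
Left, share of each library's counts that fell on the 100 members, in percent. Right, number of members whose highest scaled level was in that library. Colours mark hours at -5 °C, and the asterisk marks the library deposited under 2 times. Shares at 12 and 24 h lie between 0.601% and 0.860%, and elsewhere between 0.245% and 0.390%.

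Rank 1, TRINITY_DN194520_c2_g3, had the highest rule ratio and the lowest read count of any member in a single late library. Its scaled level was 0.361, 0 and 1.05 at 0 h, 0.077, 0 and 0.1 at 0.5 h, and 0.304 and 0.672 at 4 h. It was 21.0, 0.956 and 3.51 at 12 h, 8.21, 6.40 and 12.4 at 24 h, and 0.458, 0.157 and 0 at 48 h. The groups overlap, because 12 h replicate 2 lies below 0 h replicate 3. These values rest on 12 to 147 reads a library at 12 and 24 h and on 0 to 6 reads elsewhere. Its log2 fold change for 12 and 24 h against the mean of the other times was 5.15 (SE 0.71, edgeR adjusted p = 0.0022), where the SE is back-calculated from the F statistic. The rule chose members on this contrast, so its p-values here and below describe the members and are not independent evidence. Across alternatives the log2 value lay between 2.55 and 6.34, and the adjusted p was above 0.05 on leaving out replicate 2 (0.0729) or replicate 3 (0.0732) of 4 h.

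Rank 2, TRINITY_DN209232_c1_g4, was high in every late library and highest in 1 library of each late time. Its scaled level was 1.25, 1.28 and 0.796 at 0 h, 3.81, 0.307 and 0.851 at 0.5 h, and 2.16 and 1.07 at 4 h. It was 9.66, 46.4 and 10.4 at 12 h, 15.7, 45.2 and 18.8 at 24 h, and 0.895, 5.27 and 0.317 at 48 h. The groups do not overlap. Its log2 fold change was 4.10 (SE 0.65, edgeR adjusted p = 0.0071). The call was lost on leaving out either 0 h library or either 4 h library of the fit, with log2 values between 3.97 and 4.27. Each of those fits had 1 library at that time, and 95186 to 97017 genes passed the filter.

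Rank 3, TRINITY_DN199631_c0_g1, varied less between replicates. Its scaled level was 1.16, 0.883 and 2.14 at 0 h, 2.59, 1.97 and 0.513 at 0.5 h, and 2.34 and 3.36 at 4 h. It was 11.7, 12.4 and 19.7 at 12 h, 13.4, 20.6 and 19.2 at 24 h, and 1.21, 1.85 and 0.724 at 48 h. The groups do not overlap, and the lowest late value is more than 3 times the highest other value. Its log2 fold change on the contrast that chose it was 3.37 (SE 0.33, edgeR adjusted p = 7.8e-05), and 2.64 to 3.54 in the alternatives.

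Ranks 4 and 5 belong to 1 assembly component, which is the assembler's group of contigs with sequence in common, and had the same profile at different heights. Rank 5, TRINITY_DN211432_c3_g6, had scaled levels of 1.30, 6.84 and 2.34 at 0 h, 11.2, 5.99 and 10.6 at 0.5 h, and 6.47 and 10.8 at 4 h. It had 47.3, 30.1 and 40.5 at 12 h, 47.6, 41.8 and 34.3 at 24 h, and 2.95, 3.54 and 3.54 at 48 h. The groups do not overlap, and the 48 h values lie below both 4 h values and all 3 values at 0.5 h. Rank 4 had means of 9.98 ± 5.82 before the cold (SD, n = 3), 21.9 ± 6.55 after 0.5 h (n = 3) and 22.4 ± 0.883 after 4 h (n = 2). They were 102 ± 19.3 after 12 h, 118 ± 1.18 after 24 h and 10.6 ± 2.44 after 48 h (n = 3 each). Its 24 h libraries were the most even, at 117, 119 and 119. Log2 fold changes were 2.81 for rank 4 (SE 0.22, edgeR adjusted p = 9.4e-06) and 2.77 for rank 5 (SE 0.28, adjusted p = 0.00011). Genes of a component share sequence, so reads could be divided between ranks 4 and 5 and they are not independent transcripts.

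**Figure D3:**
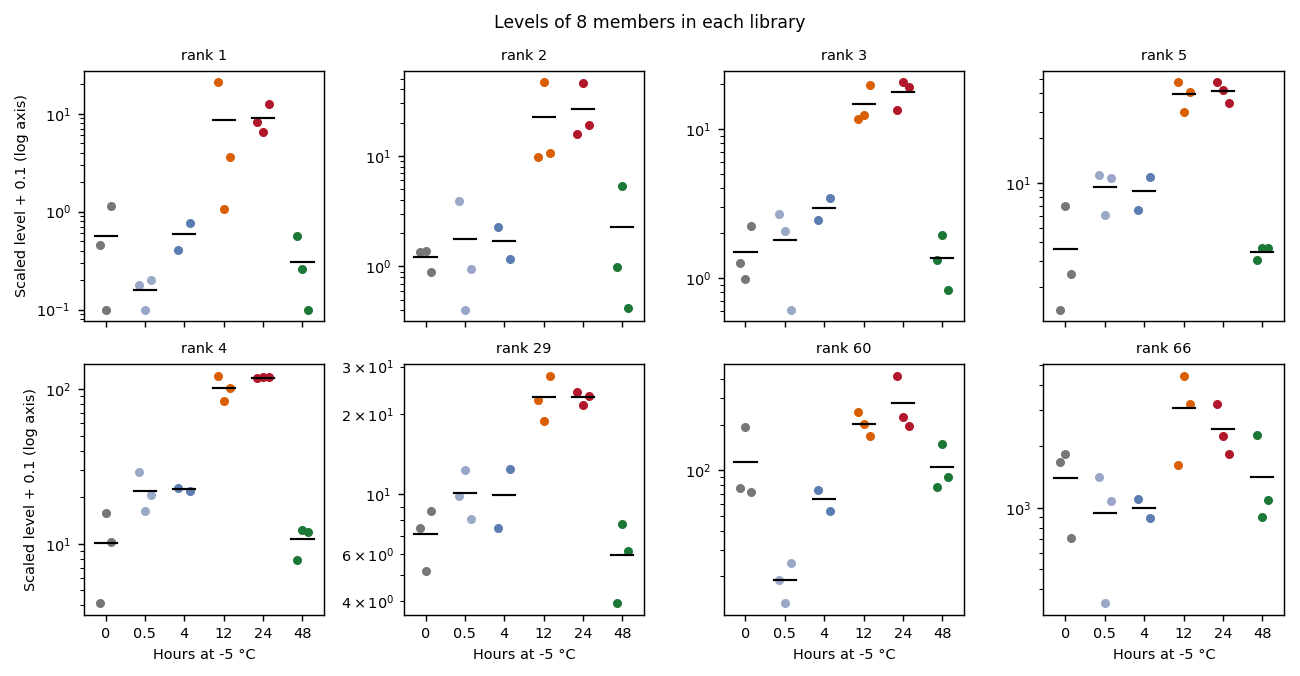
Scaled level plus 0.1 (log axis) of 8 members against hours at -5 °C. Points are libraries, with 3 at each time and 2 at 4 h, and bars are means. Ranks 3, 5 and 4 stand clear of their other times at 12 and 24 h, rank 60 has its lowest level at 0.5 h, and rank 66 overlaps between times.

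The 3 most abundant members had overlapping levels, and log2 fold changes somewhat below the members' median of 1.56. Rank 66 had scaled levels of 1682, 1827 and 710 at 0 h, 1408, 341 and 1085 at 0.5 h, and 1106 and 891 at 4 h. It had 1612, 4440 and 3227 at 12 h, 3222, 2248 and 1825 at 24 h, and 2263, 897 and 1092 at 48 h. Its lowest late values, in 12 h replicate 1 and 24 h replicate 3, lie below values at 0 and 48 h. Rank 47 averaged 982 ± 376 at 12 h and 967 ± 173 at 24 h, and 256 ± 141 at 48 h (SD, n = 3 each). Rank 38 averaged 748 ± 359 at 12 h and 564 ± 75.9 at 24 h, with single values up to 460 at 0.5 h and 438 at 48 h. The log2 fold changes of ranks 66, 47 and 38 were 1.32, 1.4 and 1.47, and none passed edgeR's test (adjusted p = 0.15, 0.078 and 0.16).

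The members' time course was tested in edgeR's quasi-likelihood fit of all 68030 genes that passed the filter on low counts, with adjustment over all of them. All 100 members passed that filter. For 12 and 24 h against the mean of the other times, the contrast the rule itself used, 56 members were called higher and 0 lower at an adjusted p under 0.05. Of all genes tested 0.778% were called higher and 0.0853% lower. The members' log2 fold changes ran from 0.76 to 5.15 with a median of 1.56, against a median of 0.09 over all genes. Called members were 37 of ranks 1 to 50 and 19 of ranks 51 to 100. The count of 56 was 37 on leaving out replicate 2 of 12 h, where 251 of 66824 genes were called higher. It was 35 with library size as the only scaling (277 of 68030 genes higher) and 34 with the replicate number as a block (224 of 68030). In DESeq2 it was 89 (1885 of 62104 genes higher). Leaving out a 0 h or 4 h library left 1 library at that time, and 95186 to 97017 genes then passed the filter. Fewer members and fewer genes in all were called in those fits, where the members' median log2 fold change was 1.56 to 1.65. In the test of all times together 19 members were called, against 0.717% of all genes. Leaving out 1 library lowered that count to 11 for replicate 2 of 0.5 h (258 of 66531 genes called). It was 10 or 8 for replicates 1 and 2 of 24 h (391 of 67344 and 330 of 66098 genes). For each library of 48 h it was 8, with 251 to 274 genes called in all.

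Single values were a stricter view than time means. In 28 members each of the 6 late values lay above each of the 11 other values, which held for 0.242% of the 17361 genes with a late mean of at least 5. The rule had already set each late value above the other time means, so a high count is built in. The count was 30 without the library deposited under 2 times, 29 without 24 h replicate 2 and 32 without 12 h replicate 2, omissions chosen after seeing the data. Of the 28, 25 were also called in the fit, which is no separate support because it compares the same times in the same libraries, less the one deposited under 2 times. In the other members 1 library overlapped in 38, 2 libraries in 17 and 3 or more in 17, with 4 at most. Overlap came from the 0 h libraries in 34 members, those of 0.5 h in 44, the 2 of 4 h in 10 and those of 48 h in 27, and a member could overlap at more than 1 time. By library it was most often 0.5 h replicate 3, in 22 members.

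Some members outside the steepest few were uniform across replicates. Rank 94 had late values within 1.30 times of each other, at 9.53, 11.6 and 10.4 at 12 h and 12.4, 10.5 and 11.05 at 24 h. Its other values were 5.48, 5.26 and 5.02 at 0 h, 1.73, 0 and 6.24 at 0.5 h, 5.59 and 8.05 at 4 h, and 0, 1.38 and 3.87 at 48 h. These groups do not overlap, but the spread at 0.5 and 48 h was wide, and the log2 fold change of 1.92 (SE 0.64) had an edgeR adjusted p of 0.17. Rank 29 had scaled levels of 22.5, 18.7 and 27.7 at 12 h and 24.0, 21.5 and 23.3 at 24 h, against a highest value elsewhere of 12.3, in 4 h replicate 3. Its late CPM ran from 74.1 to 107. Over all members the highest of the 6 late values was 1.30 to 21.9 times the lowest, with a median of 2.54. The median coefficient of variation within a time was 34.3% at 12 h and 30.8% at 24 h, and 42.9%, 44.2%, 19.1% and 42.1% at 0, 0.5, 4 and 48 h, where 4 h had 2 libraries.

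The rule did not set which of 12 and 24 h was higher, but ranking by the lower of both means favours members whose means are alike. For that step edgeR called 0 members, as it called 0% of all genes. An unadjusted p under 0.05 was found in 1 member and in 2019 of 68030 genes. DESeq2 and limma also called 0 members, where DESeq2 called 31 of 64736 genes. The median log2 fold change was 0.02, with a range from -1.11 to 1.29 and a median SE of 0.54. By time means 57 members were higher at 24 h, 42 at 12 h and 1 was equal, and over all 17361 genes with a late mean of at least 5, 51.7% were higher at 24 h. The 2 means were within 1.5 times of each other in 88 members and in 81.0% of those genes. The member furthest toward 24 h was rank 68, at 14.5, 9.19 and 8.55 at 24 h and 6.22, 4.57 and 2.91 at 12 h. The member furthest toward 12 h was rank 39, at 5.32, 3.22 and 3.50 at 24 h and 2.52, 15.9 and 3.94 at 12 h. In rank 68 the times do not overlap (log2 fold change 1.29, SE 0.48, edgeR adjusted p = 1), while in rank 39 the 12 h mean rests on replicate 2.

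The rule set no direction for steps among the early times, though a high mean at any of them lowers a gene's rank or keeps it out. From 0 to 0.5 h edgeR called 0 members beside 0.00588% of all genes. At an unadjusted p under 0.05 there were 6 members and 4068 of 68030 genes. The members' median log2 fold change was 0.12 with 56 up, near the 0.10 and 54.7% of all genes. DESeq2 called 2 members (249 of 52922 genes). Limma called 1 or 2 with 1 or 0.1 added to the level (167 or 205 of 68030), and edgeR without a filter 2 (795 of 202727). From 0.5 to 4 h edgeR again called 0 beside 0% of all genes. At an unadjusted p under 0.05 there were 6 members and 5248 of 68030 genes. The members' median was -0.06 with 45 up, near the -0.11 and 43.9% of all genes. DESeq2 called 1 member (500 of 45083 genes). Limma called 0 or 1 (165 or 141 of 68030), and edgeR without a filter 2 (1274 of 202727). The 0, 0.5 and 4 h means were within 2 times of each other in 66 members and in 70.1% of the 17361 genes with a late mean of at least 5. Composition scaling mattered here: with library size alone the median of all genes for 4 h against 0.5 h was -0.32 in place of -0.11, and the members' median -0.23.

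Single members had a shape of their own before 12 h. Rank 60 was lowest at 0.5 h, with levels of 76.4, 193 and 72.2 at 0 h, 18.8, 13.2 and 24.4 at 0.5 h, and 74.3 and 53.9 at 4 h, before 240, 202 and 167 at 12 h and 420, 222 and 194 at 24 h. Its 0.5 h values lie below every other library. The 0.5 h step had a log2 fold change of -2.65 (SE 0.52), which did not pass over all genes (edgeR adjusted p = 0.25). Rank 7 had 0.471, 0 and 0 at 0.5 h, on 3, 0 and 0 reads, against 0.459, 4.98 and 8.47 at 0 h. The 0.459 is from the library deposited under 2 times, which the fit left out, and with it the times overlap. In the fit the step of rank 7 was -5.06 in log2 fold change (SE 1.3, adjusted p = 0.59 in edgeR). Rank 59 was the other way round, at 3.30, 4.19 and 4.28 at 0.5 h against 1.54, 0.726 and 1.04 at 0 h (log2 fold change 2.20, SE 0.57, edgeR adjusted p = 0.57). These 3 were picked after their values were seen, as the members with the smallest p for this step.

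Entry into the high phase, 12 h against 4 h, was part of the rule. All 100 members had a positive log2 fold change, from 0.31 to 4.23 with a median of 1.58. Yet edgeR called 0 of them, beside 0.0382% of all genes called higher. At an unadjusted p under 0.05 there were 62 members and 4106 of 68030 genes. DESeq2 called 23 members (489 of 41164 genes higher) and edgeR without a filter 18 (1159 of 202727). Limma called 1 with 1 or 0.1 added to the level (40 or 52 of 68030 genes higher). The 4 h group had 2 libraries in this fit. For rank 4, at 102 ± 19.3 in the 12 h libraries (SD, n = 3) and 22.4 ± 0.883 in the 4 h libraries (n = 2), the log2 fold change was 2.23 (SE 0.42) and the edgeR adjusted p 0.12.

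On leaving the high phase, 48 h against 24 h, also used by the rule, all 100 had a negative log2 fold change, with a median of -1.63. EdgeR called 6 of them lower and 0 higher, where 0.0691% of all genes were called lower and 0.0265% higher. These were ranks 3, 4, 5, 29, 36 and 62, at log2 fold changes of -3.81, -3.58, -3.73, -2.07, -3.42 and -2.18 (edgeR adjusted p = 0.016, 0.0053, 0.0085, 0.048, 0.037 and 0.019). Rank 36 had 0.266, 0.456 and 1.2 at 48 h against 6.02, 7.10 and 3.73 at 24 h. Rank 62 had 5.70, 12.3 and 9.08 at 48 h against 27.4, 40.4 and 45.2 at 24 h. The count of 6 fell to 1 on leaving out any 48 h library, where 7 or 8 genes in all were called lower. It fell to 2 or 3 for replicates 2 and 3 of 24 h (17 and 36 genes in all). It also fell for either 4 h library, which left 1 library at that time. It was 2 with library size alone (32 genes lower) or with the replicate number as a block (23). DESeq2 called 43 (1046 of 59474 genes lower) and edgeR without a filter 34 (5986 of 202727). Limma called 18 or 14 with 1 or 0.1 added (149 or 192 of 68030). Rank 1 had the lowest ratio of 48 h to 24 h, and its log2 fold change was -5.16 (SE 1.2, adjusted p = 0.11 in edgeR).

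How far the members came back was limited by the rule only from above. The 48 h mean over the mean of the 8 early values, with 0.1 added to each, had a median of 0.974 and ran from 0.292 to 1.94. It was below 1 in 56 members, and in 49.7% of the 17361 genes with a late mean of at least 5. In 8 members it was at most 0.5 and in 12 at least 1.5. Rank 88 had the lowest ratio, with 0.479, 0.990 and 1.31 at 48 h, while its early values ran from 0.254 to 7.17 and overlapped. Rank 81 had 4.79, 4.71 and 16.3 at 48 h, against 15.01 to 62.9 in the 8 early libraries, so only 1 of its 48 h libraries reached the early range. At the other end, rank 68 stood at 2.95, 2.42 and 2.56 at 48 h, where its early values ran from 0.681 to 2.56. The 48 h mean was the lowest of all in 34 members, while 25 had their lowest mean before the cold, 16 after 0.5 h and 25 after 4 h. Of the genes with a late mean of at least 5, 17.7% were lowest after 48 h. The rule bars members, but not those genes, from being lowest at 12 or 24 h, where 11.5% and 12.0% of them were.

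**Figure D4:**
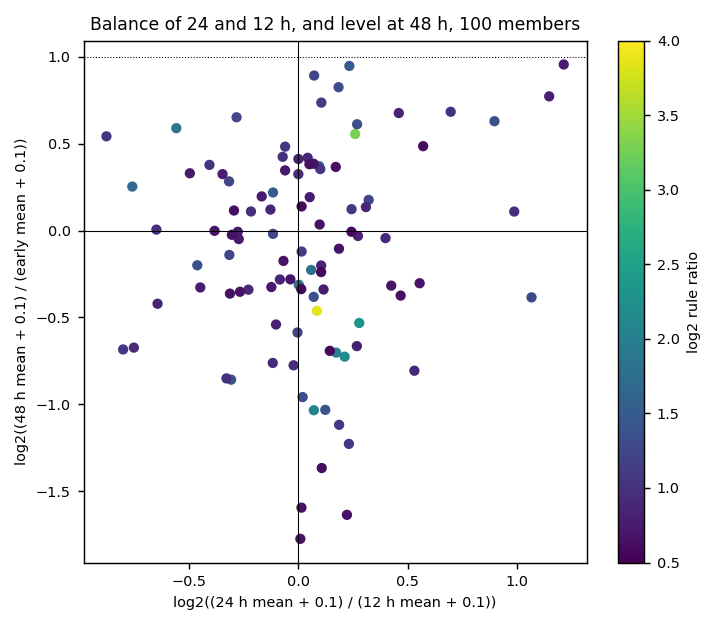
Each point is 1 of the 100 members. The horizontal axis is log2 of the 24 h mean over the 12 h mean, the vertical axis log2 of the 48 h mean over the mean of the 8 early values (0.1 added to each), and colour is log2 of the rule ratio. The dotted line is the limit the rule sets at 48 h. Points lie on both sides of 0 on both axes, with 56 below 0 on the vertical one.

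Members came from 82 assembly components, of which 13 held 2 members, 1 held 3 and 1 held 4. The component with 4, ranks 19, 44, 63 and 68, was highest at 24 h in each, at means of 11.4, 9.92, 7.76 and 10.7, against 6.09, 4.95, 3.45 and 4.57 at 12 h. None of these differences between 24 and 12 h passed (edgeR adjusted p = 1 for each). The component with 3, ranks 16, 29 and 42, was nearly level, at 36.9, 22.9 and 9.61 at 24 h against 35.1, 23.0 and 12.1 at 12 h. Its 48 h means were 9.52, 5.85 and 2.05.

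Other genes of the same components, which the list does not hold, also tended to stand higher at 12 and 24 h. There were 303 of them in 73 components, 182 passed the filter, and 14 met the rule below rank 100. For 12 and 24 h against the other times 168 of the 182 had a positive log2 fold change, with a median of 0.94, where 55.8% of all genes tested were positive and their median was 0.09. EdgeR called 25 of the 182 higher and 0 lower, beside 0.778% and 0.0853% of all genes. For 48 h against 24 h it called 3 lower and 0 higher, beside 0.0691% and 0.0265% of all genes. In that step 30 of the 182 were positive, and 48.3% of all genes. Reads can be divided among genes of a component, so these genes are not independent of the members, and how much of their profile comes from shared reads was not tested. Members held a median of 59.6% of the late level summed over all genes of their component, so the sums restate much of the choice of members. The rule ratio of these sums had a median of 1.59, against 1.85 for the best member of each component.

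**Figure D5:**
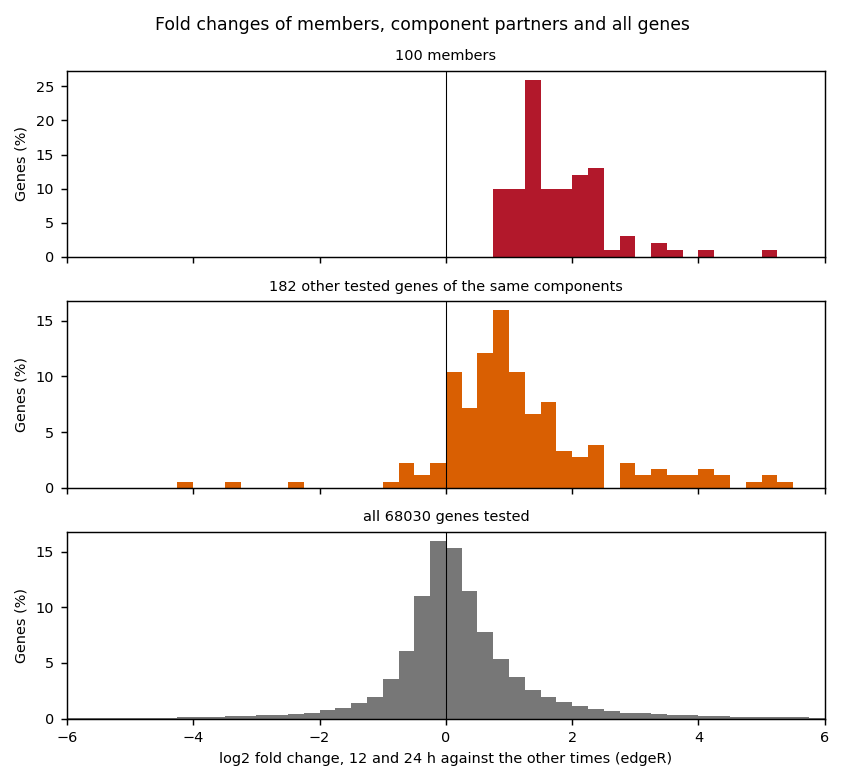
Distribution of the log2 fold change for 12 and 24 h against the other times in edgeR, as percent of genes in bins of 0.25, for the 100 members (top), the 182 other tested genes of the same assembly components (middle) and all 68030 genes tested (bottom). The medians are 1.56, 0.94 and 0.09. The members' values were chosen by the rule.

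Gene length was a property the rule did not name. Counts divided by the scaled level give a gene's effective length in relative units, set here so that 1 is the median gene with at least 50 reads in every library. The members' median was 0.454 (quartiles 0.247 and 0.968), against 0.576 (quartiles 0.275 and 1.12) over 17136 genes with a late mean of at least 5, using libraries with at least 20 reads and a scaled level of at least 1. The shortest and longest members, ranks 94 and 93, were at 0.104 and 3.59. A change of this length between times would mark a shift among transcripts of one assembled gene. In the 83 members with enough reads, the late minus other difference in log2 length had a median of 0.018, against 0.02 over 16462 genes. It reached 0.2 in size in 4.82% of those members (1 longer and 3 shorter), against 5.70% of the genes. This difference was not tested.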

How the data were processed

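Trizol RNA of leaves frozen in dry ice went into MGIEasy mRNA libraries for BGI-seq, per the labels' protocols. The submitters' processing notes name Trimmomatic 0.36 and FastQC. Aligner, counter and build: not given in the sources used here. Estimated counts (expected counts) per assembled gene were deposited by the authors, with a signal table of these genes that is scaled by TMM, per its name, and for gene length, as its near-constant ratio to the counts within a gene shows. Whether that signal is TPM or FPKM is not stated. All columns matched sample titles.

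The members and all lists were chosen with earlier results of these data known. Membership was computed on the scaled table with 17 libraries. Estimated counts were rounded and fitted with edgeR 4.0.16 under R 4.3.3 (TMM factors after filterByExpr, quasi-likelihood F test, 1 mean per time, no covariate, Benjamini-Hochberg over 68030 genes), after a check on simulated counts. The 16 libraries left 10 residual degrees of freedom, and the common biological coefficient of variation was 69.3%. Alternatives were DESeq2 1.42.0, scaling by RLE factors or by library size only, limma 3.58.1 on the scaled table as log2(value + 1) or log2(value + 0.1), a fit with no filter, other uses of the identical columns, a replicate block and leaving out each library. Identifiers printed are the 2 members of highest rule ratio and, of the others, the 2 with the lowest ratio of the 48 h to the 24 h mean. Ranks describe the rest. Of the members, 76 had at least 10 reads in every library and 6 had 0 in some library.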

Additional observations from a re-analysis of the deposited data

How the results depend on the processing

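Counts of called members moved with the processing. The sign for 12 and 24 h against the other times, positive in all 100 members in each of the 26 alternatives, was fixed by the choice of members and shows no stability. For that contrast library size alone gave 35 members, DESeq2 89 and the replicate block 34. Leaving out 1 library of 0.5, 12, 24 or 48 h gave 37 to 61. For 0.5 h against 0 h, DESeq2 gave 2, limma 1 (with 1 added) and 2 (with 0.1 added), and no filter 2. For 4 h against 0.5 h, DESeq2 gave 1, limma with 0.1 added 1 and no filter 2. For 12 h against 4 h, DESeq2 gave 23, limma 1 with either value added and no filter 18. Leaving out 1 library gave 0 in these 3 steps and in 24 h against 12 h. For 48 h against 24 h, library size alone gave 2, DESeq2 43, limma 18 and 14, no filter 34, the identical library at 4 h alone 3, the replicate block 2, and leaving out 1 library 1 to 9. Over all times, DESeq2 gave 67 (3502 of 60788 genes), limma with 1 added 29 (948 of 68030) and no filter 68 (15362 of 202727). The identical library at 0 h alone gave 29 (770 of 69253) and the replicate block 8 (228 of 68030). Leaving out 1 library of 0.5, 12, 24 or 48 h gave 8 to 20. Calls over all genes moved too, and most are given with each step above. The cause of these shifts was not tested.

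The rule gave 329 genes with a late mean of at least 1 and 129 with one of at least 10, by construction. Leaving out 1 library gave 173 to 336, with 336 without 12 h replicate 1 and 301 without 12 h replicate 3, where fewer late values had to pass. Without both identical columns 90 of the 100 members met the rule, with that library at 4 h alone 93, and on TMM-scaled CPM from the counts 63.

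Replicate numbers gave no sign of pairing the libraries: deviations from the time means correlated above 0.1 in 6 of 36 pairs that shared a number, with a median of -0.049. In 18 of 70 other pairs they did, with a median of 0.025. Deviations within a time sum to 0, so these correlations are not independent and do not settle whether the numbers pair libraries.

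Some steps of printed members, none called in the reported fit, changed sign. For TRINITY_DN209232_c1_g4 at 4 h against 0.5 h (0.0099), RLE gave -0.0036, library size alone -0.34, DESeq2 -0.012, no filter -0.018, all 18 columns -0.13, the identical library at 4 h alone -0.095, the replicate block -0.40, and leaving out 1 library -0.72 to 1.55. Leaving out 1 library gave -0.80 to 1.26 for its step at 0.5 h and -0.49 to 1.5 for 24 h against 12 h. It gave -2.96 to 2.71 for TRINITY_DN194520_c2_g3 at 0.5 h (-2.15, SE 1.5) and -0.080 to 1.13 for TRINITY_DN199631_c0_g1 at 0.5 h. For TRINITY_DN211432_c3_g6 it gave -0.54 to 0.17 at 4 h against 0.5 h and -0.12 to 0.29 for 24 h against 12 h. The median member had 183 reads in its lowest late library and 30.5 in its lowest other library, which limits what the low phase can show.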

Other observations

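The library deposited as both 0 h replicate 1 and 4 h replicate 1 was left out of the reported tests and entered only alternatives, and its time is not known. Over the 100 members its scaled level was a median 0.869 of that in 0 h replicate 2 and 1.01 of that in 0 h replicate 3. It was 0.849 of that in 4 h replicate 2 and 0.921 of that in 4 h replicate 3. Its value reached the lowest late value in 13 members.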
